A study of Mus musculus with 12 samples.

Results

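The 39 microglia and macrophage genes described here are 39 of the 36131 genes in the count table of a mouse retina RNA-seq study. They were taken from a fixed list of known marker genes, matched by symbol to 1 Ensembl row each, and were read in 3 roles. The homeostatic microglia role holds 8 genes of resting microglia, and the activation and phagocytosis role holds 16 genes of reactive and engulfing cells. The pan-leukocyte role holds 15 genes of white blood cells. Some of them, such as Spi1, Irf8 and Aif1, are genes of myeloid cells, so this role does not separate microglia from other white blood cells. All 39 passed the filter on low counts.

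Microglia are the resident macrophages of the retina. They descend from yolk sac progenitors, live on signalling through the receptor CSF1R, survey the tissue through receptors for nucleotides and for the neuronal chemokine fractalkine, and take up debris through TREM2, Fc and complement receptors. In oxygen-induced retinopathy, an animal model of retinopathy of prematurity, high oxygen closes the growing retinal capillaries, and abnormal vessels sprout once the animal is back in room air. Myeloid cells gather around such vessels.

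All mice were C57BL/6J wildtype and were killed at postnatal day 18 (P18), and each of the 12 retina libraries came from its own mouse. RA-PBS mice, animals 1 to 4, stayed in room air and received placebo (PBS). O2-PBS mice, animals 5 to 8, were kept in 75% oxygen from P7, were back in room air at P12 and received placebo. O2-IC100 mice, animals 9 to 12, had the same oxygen exposure and received the anti-ASC antibody IC100 at 10 µg/g into the peritoneum on P12, P14 and P16. ASC is the adaptor protein that assembles inflammasomes. The labels give the placebo on the same days and by the same route, while the methods of the study place PBS in the vitreous. No room air group with IC100 was analysed here.

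Library totals were 14906970 to 24437916 counts. Rod photoreceptor markers, which define the tissue, took 4.30% to 5.34% of the counts of 11 libraries and 0.359% of those of O2-IC100 animal 10. Lens markers and crystallins took 60.99% of that library, and its pigment epithelium and red cell markers were also far above the others. Of the RA-PBS libraries, animal 1 held 0.00772% lens counts, and animals 2, 3 and 4 held 1.31%, 4.69% and 1.48%, while the O2-PBS libraries and the other 3 O2-IC100 libraries held at most 0.0217%. Y-linked genes summed to 239 to 372 CPM (counts scaled to a common library size) in animals 1, 2, 3, 8, 9, 11 and 12 and to 1.31 to 10.96 CPM in animals 4, 5, 6, 7 and 10, so sex was mixed unevenly over the groups. Counts of called members and their median log2 folds are therefore given for the 11 animals other than animal 10 and for all 12 animals, while single-gene folds come from the 11-animal fit unless stated otherwise. Levels are normalized CPM, that is, CPM computed on the TMM-scaled library size, where 3 counts came to 0.144 to 0.379 normalized CPM.

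The members were low-abundance transcripts in whole retina. All 39 together summed to 117 ± 25.6 normalized CPM in RA-PBS (SD, n = 4), to 206 ± 16.9 in O2-PBS (n = 4) and to 227 ± 30.9 in O2-IC100 without animal 10 (n = 3). The lowest O2-PBS retina, at 193, lay above the highest RA-PBS retina, at 149, and the O2-PBS and O2-IC100 retinas overlapped. In bulk tissue, more cells of a type and more RNA per cell cannot be told apart.

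The sums of the 3 roles differed in how far the groups stood apart. Pan-leukocyte members summed to 39.2 to 46.2 normalized CPM in RA-PBS, 80.7 to 102.8 in O2-PBS and 70.3 to 87.1 in the 3 O2-IC100 retinas. Activation and phagocytosis members summed to 26.3 to 61.6, 60.4 to 80.9 and 81.2 to 111.1, and homeostatic members to 24.7 to 41.4, 38.2 to 46.5 and 42.1 to 56.8 normalized CPM in the same order. So RA-PBS and O2-PBS were separate for the pan-leukocyte sum and overlapped for the other sums. For the activation sum, the 3 O2-IC100 retinas began where the O2-PBS retinas ended.

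**Figure D1:**
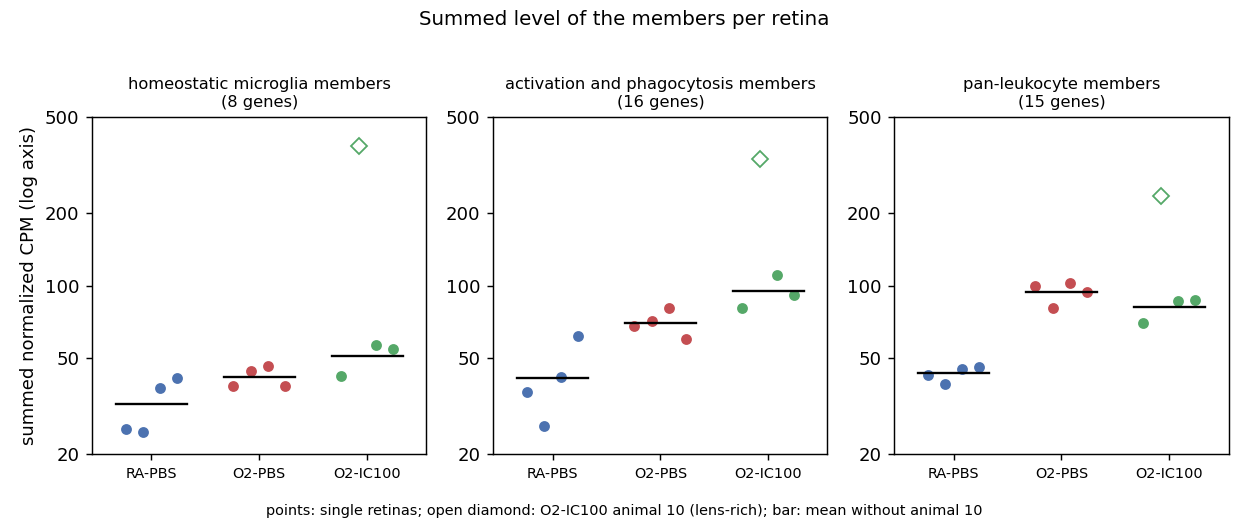
Summed normalized CPM of the homeostatic (8 genes), activation and phagocytosis (16 genes) and pan-leukocyte members (15 genes) in each retina on a log axis, with 1 point per animal and a bar at the group mean without animal 10. The O2-PBS points of the pan-leukocyte panel, 80.7 to 102.8, all lie above the RA-PBS points, 39.2 to 46.2. Animal 10, the open diamond, lies far above the rest in each panel on this TMM scale. As CPM of the library total, its homeostatic sum was 123.5, against 47.7 to 63.3 in the other 3 O2-IC100 retinas. Its activation sum, 108.4, was within their 92.0 to 123.7, and its pan-leukocyte sum, 76.2, was below their 79.6 to 99.9.

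Per kilobase of exon, the cathepsin gene Ctss was the most abundant member in RA-PBS, at 7.51 normalized CPM per kb. The actin regulator Coro1a followed at 4.50, and then the phagocytic receptor Trem2 at 3.51, the Fc receptor gamma chain Fcer1g at 3.41 and the growth factor receptor Csf1r at 3.06. The inhibitory receptor Lilrb4a stood lowest at 0.0569 normalized CPM per kb. In O2-PBS, Ctss was again first at 9.84, Arhgdib came next at 7.25, against 2.61 in RA-PBS, and Lcp1 reached 4.68, against 1.27.

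The first comparison asked which members differed after oxygen exposure. In the 11 animals, 15 of the 39 members were higher in O2-PBS than in RA-PBS and 0 were lower, where 4.09% of the 16688 genes tested were called higher and 2.18% lower. In edgeR's quasi-likelihood test, with p-values adjusted over all genes tested, a call needed an adjusted p under 0.1, an unadjusted p under 0.05 and a 1.5-fold change or more. The median log2 fold of the members was 0.77, against -0.01 over all genes tested, and 35 of 39 were positive. By role, 9 of 15 pan-leukocyte members were called (median log2 fold 1.02), 4 of 16 activation and phagocytosis members (median 0.66) and 2 of 8 homeostatic members (median 0.38). Values did not overlap between the groups for 16 members, all higher in O2-PBS, where 7.8% of all genes were higher without overlap and 6.56% lower.

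Of the homeostatic members, the fractalkine receptor Cx3cr1 and the UDP receptor P2ry6, which triggers engulfment, were called. Cx3cr1 was 5.44, 4.30, 5.55 and 6.63 normalized CPM in RA-PBS and 8.20, 10.4, 9.39 and 8.15 in O2-PBS, with a log2 fold of 0.72 ± 0.17 (SE) and an adjusted p of 0.0168 by edgeR. The groups did not overlap. P2ry6 was at 0.0561 to 0.444 normalized CPM in RA-PBS, a level of a few counts, and at 0.776 to 1.69 in O2-PBS, a log2 fold of 2.33 ± 0.47 with an adjusted p of 0.00846 by edgeR. The other 6 did not pass the test. P2ry12, the ADP receptor that steers microglial processes, had a log2 fold of -0.02 ± 0.32, and Tmem119, a membrane protein used to tell microglia from other macrophages, had -0.47 ± 0.28. The transcription factor Sall1, which upholds microglial identity, had -0.27 ± 0.34, and 1.04 with the lens level as a covariate, where it was called higher. That covariate fit leans on RA-PBS animal 1, the RA-PBS library with the lowest lens share and the lowest Sall1, at 1.35 normalized CPM. Csf1r (0.43 ± 0.18), the lectin Siglech (0.33 ± 0.30) and the lysophospholipid receptor Gpr34 (0.59 ± 0.42) were positive.

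Among activation and phagocytosis members the called genes were Cd68, Mpeg1, Lyz2 and Lilrb4a. Cd68, a protein of phagocyte lysosomes, was 1.93 to 1.96 normalized CPM in all 4 RA-PBS retinas and 4.34, 5.68, 5.43 and 3.38 in O2-PBS, a log2 fold of 1.27 ± 0.20 with an adjusted p of 0.00192 by edgeR. Mpeg1, a pore-forming protein of macrophages, was 3.31, 3.72, 7.77 and 6.74 in RA-PBS and 11.3, 14, 16.3 and 9.76 in O2-PBS, a log2 fold of 1.26 ± 0.25 with an adjusted p of 0.00891 by edgeR. Both genes were separate between the groups. Lyz2, the lysozyme of macrophages and neutrophils, was 1.91, 0.338, 2.83 and 3.48 in RA-PBS and 5.31, 6.36, 8.48 and 4.27 in O2-PBS, a log2 fold of 1.52 ± 0.45 with an adjusted p of 0.0554 by edgeR. Lilrb4a had 0, 0, 4 and 2 counts in the RA-PBS libraries and 0.665 to 2.32 normalized CPM in O2-PBS, so that its log2 fold of 4.37 ± 0.71 (adjusted p = 0.00251 by edgeR) rests on an RA-PBS level at or near the counting floor. Lyz2 and Lilrb4a each have a close paralog, Lyz1 and Lilr4b, so the estimate of their counts may share reads with it.

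The remaining 12 activation and phagocytosis members did not pass. Trem2 was 3.25, 3.24, 3.61 and 5.95 normalized CPM in RA-PBS and 4.76, 4.64, 4.58 and 5.32 in O2-PBS, with a log2 fold of 0.26 ± 0.20. Its signalling adaptor Tyrobp ran from 0.337 to 3.58 in RA-PBS and from 1.81 to 3.51 in O2-PBS (0.77 ± 0.54). In both genes, RA-PBS animal 4 was the highest of its group and lay above the O2-PBS values. Lgals3, a galectin of reactive phagocytes, was 0.0561, 0.676, 2.83 and 3.00 in RA-PBS and 4.10 to 5.11 in O2-PBS, and despite separate groups its log2 fold of 1.52 ± 0.59 had an adjusted p of 0.143 by edgeR. The surface glycoprotein Cd52 (1.75 ± 0.65), the endotoxin coreceptor Cd14 (0.67 ± 0.43) and Ly86 (0.65 ± 0.30), which binds a toll-like receptor relative, were positive. So were the oxidase subunits Cybb (0.53 ± 0.41) and Ncf1 (0.38 ± 0.27), Ctss (0.39 ± 0.26), Fcer1g (0.23 ± 0.31) and the activating IgG receptor Fcgr3 (0.17 ± 0.36), and the inhibitory IgG receptor Fcgr2b had a log2 fold of -0.09 ± 0.75.

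The pan-leukocyte role held most of the called genes. Lcp1, which bundles actin in blood cells, was 5.16, 4.54, 6.83 and 4.90 normalized CPM in RA-PBS and 21.9, 16.9, 19.3 and 20.6 in O2-PBS, a log2 fold of 1.88 ± 0.14 with an adjusted p of 1.14e-05 by edgeR. Every O2-PBS retina was thus above every RA-PBS retina. Arhgdib, a signalling regulator of blood cells, was 2.58 to 4.11 in RA-PBS and 7.66 to 11.3 in O2-PBS (log2 fold 1.47 ± 0.19, adjusted p = 0.000468 by edgeR). The Src-family kinase Lyn was 3.04 to 4.27 and 7.92 to 11.6 (1.41 ± 0.18, adjusted p = 0.000433 by edgeR). Neither gene overlapped between the groups.

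Both chains of the integrin CR3, which binds complement, were called. Itgam was 3.59, 5.07, 5.16 and 3.84 normalized CPM in RA-PBS and 9.77, 9.18, 9.61 and 7.37 in O2-PBS, a log2 fold of 1.02 ± 0.17, and Itgb2 had a log2 fold of 1.62 ± 0.37. The adjusted p was 0.00324 for Itgam and 0.0159 for Itgb2 by edgeR. The myeloid transcription factor Irf8 (1.10 ± 0.24), the lysosomal protein Laptm5 (1.10 ± 0.21), the phosphatase Ptprc, known as CD45 (1.14 ± 0.36), and the lipid phosphatase Inpp5d, known as SHIP1 (0.81 ± 0.18), were also called, with adjusted p from 0.00635 to 0.0711 by edgeR.

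The 6 pan-leukocyte members that did not pass were all positive. Spi1, which encodes the master factor PU.1 of the myeloid lineage, was 0.611 to 1.51 normalized CPM in RA-PBS and 0.998 to 2.04 in O2-PBS, a log2 fold of 0.54 ± 0.44. Aif1, which encodes the microglial stain IBA1, was 0.617, 0.241, 0.50 and 0.527 in RA-PBS and 0.121, 0.626, 2.09 and 0.831 in O2-PBS, a log2 fold of 0.96 ± 0.60. The O2-PBS values of Aif1 spread over and beyond the RA-PBS range. The tetraspanin Cd53 (0.86 ± 0.32), the Rac activators Vav1 (0.94 ± 0.47) and Dock2 (0.58 ± 0.30) and Coro1a (0.30 ± 0.15) made up the rest.

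**Figure D2:**
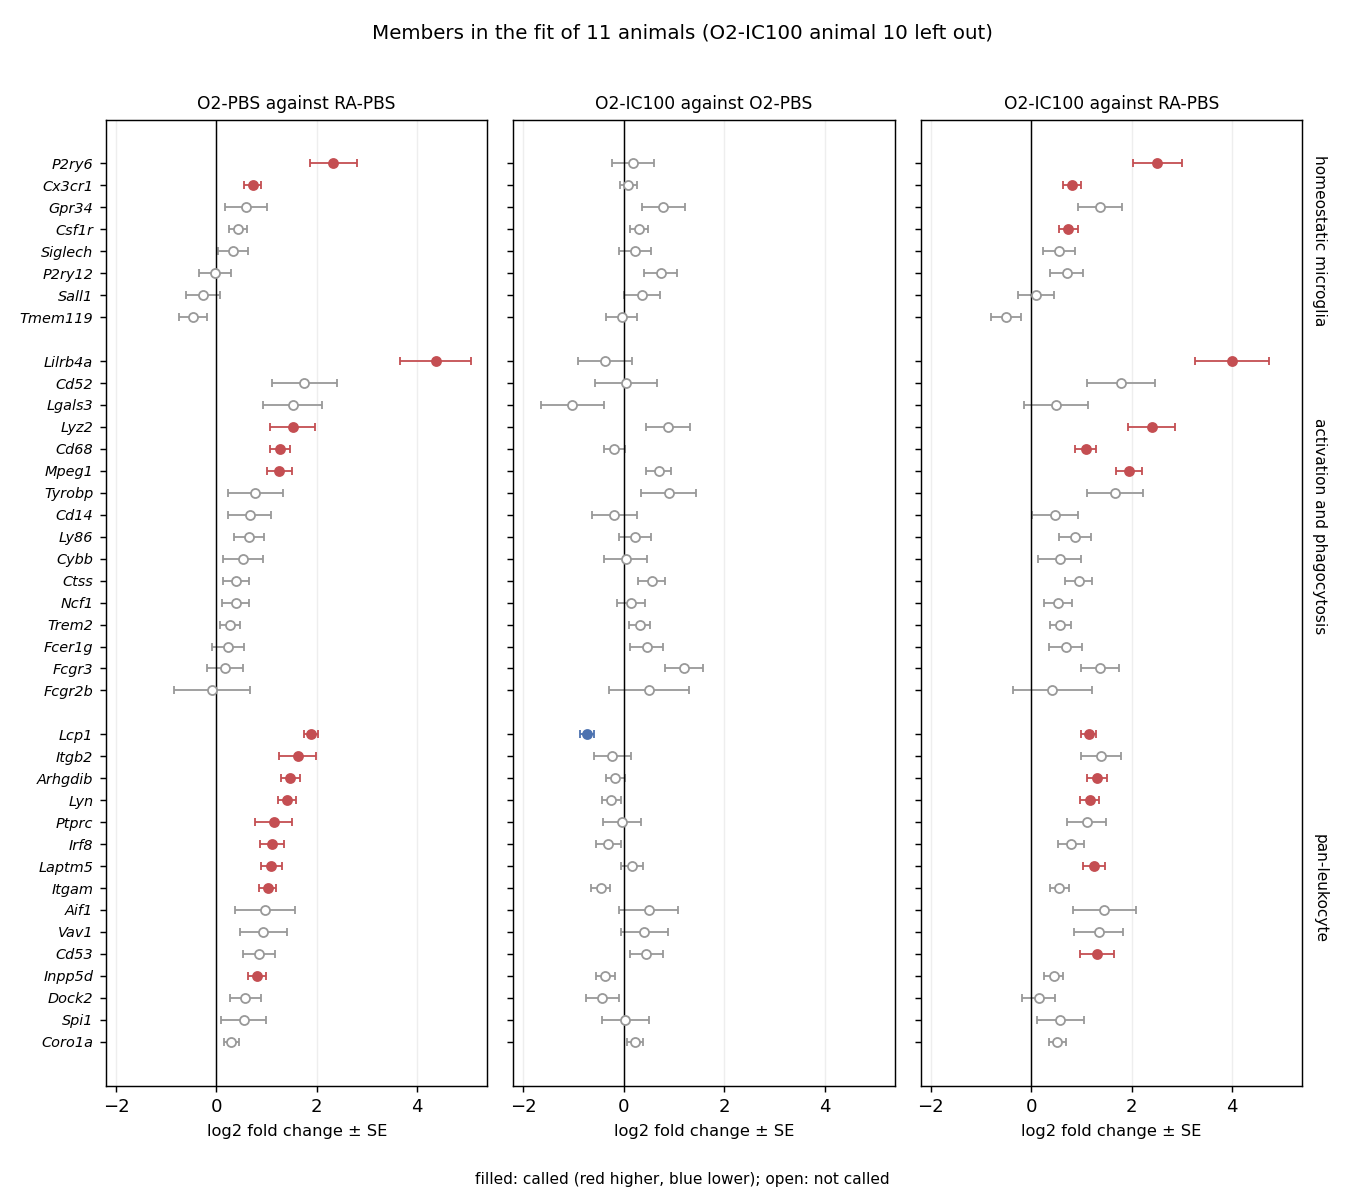
Log2 fold change with its standard error for each of the 39 members in the 3 comparisons of the 11-animal fit, grouped by role, where filled points passed the test (red higher, blue lower) and open points did not. In the left panel 15 members are filled, 9 of them pan-leukocyte, the middle panel has Lcp1 as its filled point at -0.73, and the right panel has 12 filled points.

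PU.1, the product of Spi1, binds DNA at sites with the core GAGGAA. Promoters are described here for that core, and a part of PU.1 in the members' result was not tested. RefSeq promoters of the GRCm38.p6 build were at hand for 28 members in 37 windows, and the core was searched on both strands (GAGGAA or TTCCTC) in the 250 bases before each start. It was present in 14 of the 37 windows (37.8%), for 13 of the 28 members, and in 23.3% of all 32851 such windows. A composite ETS-IRF element on either strand, GGAA followed by any 2 bases and GAAA, was in 1 of the 37 windows, that of Fcgr2b, and in 2.30% of all windows (its opening letters GGAA also end the core, so a match of each can overlap). The last 100 bases before the start are printed for 3 called members chosen for holding a match and for Trem2, which holds one and was not called, on the strand of the gene, with each core match in capitals. The windows are chr7:128062540-128062639 (+) for Itgam, chr4:130913216-130913315 (+) for Laptm5, chr1:87620212-87620311 (+) for Inpp5d and chr17:48346301-48346400 (+) for Trem2.
Itgam: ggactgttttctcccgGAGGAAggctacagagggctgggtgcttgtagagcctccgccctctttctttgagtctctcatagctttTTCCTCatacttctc
Laptm5: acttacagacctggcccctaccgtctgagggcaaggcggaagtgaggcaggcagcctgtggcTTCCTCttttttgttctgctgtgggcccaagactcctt
Inpp5d: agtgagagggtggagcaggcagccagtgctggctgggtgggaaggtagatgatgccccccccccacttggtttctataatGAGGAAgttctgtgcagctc
Trem2: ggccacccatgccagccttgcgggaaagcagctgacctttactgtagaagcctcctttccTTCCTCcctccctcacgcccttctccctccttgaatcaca
Itgam held a match on each strand, Inpp5d on its own strand, and Laptm5 and Trem2 on the opposite strand. Of the 11 called members with a window, 6 held a match and 5 did not (Lcp1, Cx3cr1, Irf8, Lyz2 and Mpeg1). Of the 17 members with a window that were not called, 7 held a match and 10 did not. A match is a description of letters, not a bound site.

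With all 12 animals in the fit, the oxygen comparison called 4 members higher, Lcp1, Lyn, Arhgdib and Lilrb4a, and 0 lower, where 0.782% of 16489 genes were called higher and 0.0243% lower. The 8 libraries compared are the same in both fits. The median log2 fold of the members was 0.78 with 12 animals and 0.77 with 11. Their errors were larger with animal 10 in the shared estimate of the spread, so that Itgam was 1.02 ± 0.35 with 12 animals and 1.02 ± 0.17 with 11.

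Other tissue markers moved with this comparison. In the 11-animal fit, 10 of 12 endothelial markers were higher in O2-PBS (summed level 246 to 361 normalized CPM in RA-PBS and 514 to 582 in O2-PBS), 15 of 15 tested lens markers were lower, and 6 of 9 pigment epithelium markers were lower. Of 8 markers of Müller glia, the supporting glia of the retina, 1 was higher and 2 were lower, and their summed level was 3387 to 4548 normalized CPM in RA-PBS and 2826 to 3101 in O2-PBS, without overlap. The part of endothelial, pigment epithelium and Müller glia content in the members' result was not tested. With the lens level as a covariate 20 members were called higher, and with the Y-linked level as a covariate 13. RA-PBS animal 1 alone of its group held a lens share near that of the O2 groups, so the lens-adjusted result leans on that retina. Left out, RA-PBS animal 3, the RA-PBS library with the highest lens share, left 16 called, and RA-PBS animal 4, the RA-PBS library with low Y-linked counts, left 20. Of the 15 called members, 13 kept their call under all 26 alternatives to the 11-animal fit, and Ptprc and Lyz2 lost theirs under some. Of the 11 rod markers, 0 were called.

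Neutrophil, monocyte and lymphocyte markers were low. Of 16 neutrophil and monocyte markers, 4 to 9 were at 0 in each library, and the summed level was 4.48 to 7.22 normalized CPM in RA-PBS and 6.88 to 7.60 in O2-PBS. The 12 lymphocyte markers summed to 3.09 to 8.44 in RA-PBS and 8.92 to 9.64 in O2-PBS, and of the 6 tested the T cell kinase Lck, named after its values were seen, passed, with a log2 fold of 1.56 ± 0.49. Red cell markers summed to 94.3 to 259 normalized CPM in RA-PBS and 83.7 to 227 in O2-PBS, and of the 5 tested 0 passed. The part of these cells in the pan-leukocyte result was not tested.

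The second comparison asked which members differed with IC100 after oxygen. In the 11 animals, 1 member was lower in O2-IC100 than in O2-PBS and 0 were higher, where 0.731% of the genes tested were called lower and 0.216% higher. Lcp1 was 11.6, 11.7 and 11.9 normalized CPM in O2-IC100 animals 9, 11 and 12, against 16.9 to 21.9 in O2-PBS, a log2 fold of -0.73 ± 0.14 with an adjusted p of 0.0478 by edgeR. These 3 values lay below every O2-PBS retina and above every RA-PBS retina. The call was lost when any 1 of animals 5, 7, 8, 9, 11 and 12 was left out (adjusted p 0.114 to 0.222), with the log2 fold at -0.69 to -0.74, with the Y-linked level as a covariate (adjusted p = 0.116) and with rod gene counts as library size (adjusted p = 0.124). Endothelial markers also differed here: 3 of 12 were lower, and their summed level was 360 to 405 normalized CPM in the 3 O2-IC100 retinas against 514 to 582 in O2-PBS. Their part in the level of Lcp1 was not tested.

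The median log2 fold of the members in this comparison was 0.16, against 0.00 over all genes tested, with 25 positive and 14 negative. It was 0.27 for activation and phagocytosis members, 0.26 for homeostatic members and -0.16 for pan-leukocyte members, of which 9 of 15 were negative. With all 12 animals the median was 0.80, with 37 positive and 2 negative. It was 0.87 for activation and phagocytosis members, 0.88 for homeostatic members and 0.67 for pan-leukocyte members. Animal 10 thus turned the sign of the pan-leukocyte median in this TMM-scaled fit. Without TMM scaling, as CPM of the library total, its pan-leukocyte sum was 76.2, against 79.6 to 99.9 in the other 3 O2-IC100 retinas. Groups did not overlap for 8 members: Mpeg1, Fcgr3, Ctss, Trem2, P2ry12 and Coro1a lay higher in the 3 O2-IC100 retinas, and Lgals3 and Lcp1 lower. Across all genes, 18% were higher and 17.3% lower without overlap between these 3 and 4 retinas. The members were thus separate no more often than genes in general.

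Fcgr3 was 5.00, 6.91 and 6.67 normalized CPM in O2-IC100 and 3.32, 2.29, 3.28 and 2.05 in O2-PBS, a log2 fold of 1.20 ± 0.37 with an adjusted p of 0.158 by edgeR. The receptor was thus higher in each treated retina than in any O2-PBS retina. Mpeg1 was 17.8, 24.3 and 19.6 in O2-IC100, above the O2-PBS range of 9.76 to 16.3, with a log2 fold of 0.69 ± 0.26 and an adjusted p of 0.196 by edgeR. P2ry12 was 4.63, 5.23 and 4.76 against 2.17 to 3.39 (0.73 ± 0.34), and Lgals3 was 2.34, 2.78 and 1.76 against 4.10 to 5.11 (-1.02 ± 0.62). These 4 genes are separate between the groups, as are 18% of all genes upward and 17.3% downward, but they did not pass the test. Itgam, at 5.11, 6.72 and 7.5 against 7.37 to 9.77, overlapped in 1 retina and had a log2 fold of -0.46 ± 0.19. Cx3cr1 (0.09 ± 0.17), Cd68 (-0.19 ± 0.20) and Aif1 (0.50 ± 0.60) had log2 folds within their error of 0.

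Fitted with only the 7 animals of these groups, 5 members were called higher and 2 lower, where 1.01% of genes were called higher and 3.82% lower. The higher members were Fcgr3, Mpeg1, Lyz2, Tyrobp and P2ry12, and the lower were Lcp1 and Lgals3, with adjusted p from 0.000369 to 0.0219 by edgeR. This fit takes no spread from the RA-PBS retinas. The Y-linked level was high in all 3 O2-IC100 retinas and in 1 of the 4 O2-PBS retinas, and with it as a covariate in the 11-animal fit 0 members were called.

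With all 12 animals, 0 members and 0 of 16489 genes (0%, in both directions) were called between O2-IC100 and O2-PBS by edgeR, 9 members had an unadjusted p under 0.05, DESeq2 called 1 member and limma voom 0. Animal 10 stood far from its group for many members. Its Sall1 was 138.9 normalized CPM, against 2.87 to 4.66 in the other 3 retinas, its Csf1r was 189 against 19.9 to 27.7, and its Lgals3 was 48.5 against 1.76 to 2.78. As CPM of the library total, without TMM scaling, its Cx3cr1 was 8.43, against 8.93 to 12.7 in the other 3, and its Sall1 was 45.0, against 3.26 to 5.19. The excess of Sall1 was thus present on both scales and that of Cx3cr1 on the TMM scale. The member sum of animal 10 was 951 normalized CPM. As CPM of the library total that sum was 308, against 219 to 283 in the other 3. Its lens, pigment epithelium and red cell markers were all far above the other retinas, and their part in the member sum was not tested.

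**Figure D3:**
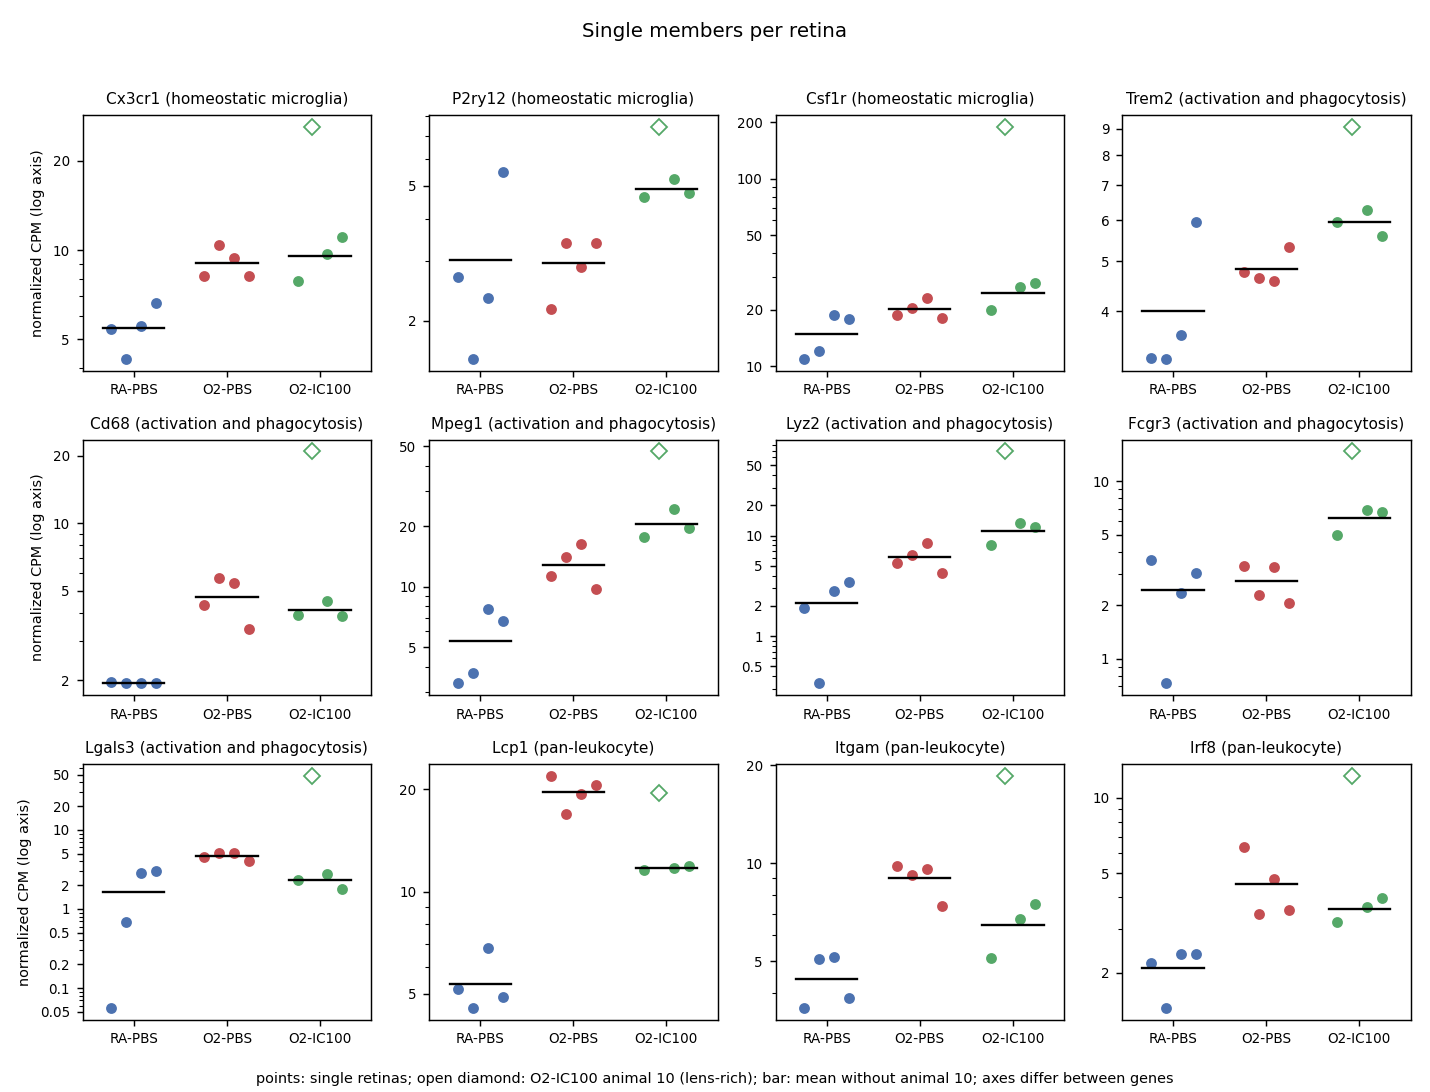
Normalized CPM of 12 members in each retina on log axes that differ between panels, with 1 point per animal, a bar at the group mean without animal 10 and an open diamond for animal 10. Lcp1 shows 3 separate levels (4.54 to 6.83 in RA-PBS, 16.9 to 21.9 in O2-PBS, 11.6 to 11.9 in O2-IC100), Mpeg1 is higher in each group than in the one to its left, and Cd68 and Cx3cr1 overlap between O2-PBS and O2-IC100.

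Against RA-PBS, which is also the control of the first comparison, 12 members were higher in O2-IC100 and 0 lower in the 11 animals, where 0.947% of genes were called higher and 0.617% lower. The median log2 fold of the members was 0.87, against 0.02 over all genes tested, and with all 12 animals it was 1.64, also against 0.02. The called members were Cx3cr1, Csf1r, P2ry6, Cd68, Lyz2, Lilrb4a, Mpeg1, Laptm5, Lcp1, Lyn, Arhgdib and Cd53. Csf1r and Cd53 had log2 folds of 0.74 ± 0.19 and 1.31 ± 0.33, beside 0.43 ± 0.18 and 0.86 ± 0.32 in O2-PBS, where they did not pass. Itgam and Inpp5d had 0.56 ± 0.19 and 0.45 ± 0.19 in O2-IC100, where they did not pass, beside 1.02 ± 0.17 and 0.81 ± 0.18 in O2-PBS. None of these 4 genes passed the test between O2-IC100 and O2-PBS.

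Mpeg1 and Lyz2 had larger folds over RA-PBS in O2-IC100 than in O2-PBS, at 1.95 ± 0.27 beside 1.26 ± 0.25 and 2.40 ± 0.47 beside 1.52 ± 0.45. In the 11-animal fit the direct comparison of the O2 groups did not pass for either, while both were called with only those groups fitted. For Lcp1 the log2 fold over RA-PBS was 1.15 ± 0.15 beside 1.88 ± 0.14. The count of 12 called members rested on few libraries: without animal 11 or without animal 12 it was 3, and without RA-PBS animal 4 it was 23. With all 12 animals 0 members and 0 genes (0%) were called in either direction by edgeR, 36 members had an unadjusted p under 0.05, DESeq2 called 20 and limma voom 0.

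Ratios of the summed levels within a retina do not depend on the scaling of the library. The pan-leukocyte sum was 1.12 to 1.67 times the homeostatic sum in RA-PBS, 1.82 to 2.60 times in O2-PBS and 1.52 to 1.67 times in the 3 O2-IC100 retinas. O2-PBS thus lay above both other groups in this ratio. Lcp1 was 16.9 to 21.9 normalized CPM of the pan-leukocyte sum in O2-PBS and 4.54 to 6.83 in RA-PBS. With Lcp1 taken out of the sum, O2-PBS animal 6 fell below RA-PBS animal 1, so that these groups overlapped. The activation sum was 1.06 to 1.49 times the homeostatic sum in RA-PBS, 1.58 to 1.78 times in O2-PBS and 1.68 to 1.95 times in O2-IC100. Here RA-PBS lay below both O2 groups, which overlapped each other. The pan-leukocyte sum over the activation sum was 0.750 to 1.49, 1.13 to 1.56 and 0.778 to 0.949 in the same order. Sall1, Lgals3 and Lyz2 are 3 members raised in animal 10, chosen with its values known. Without them, the first ratio was 1.24 to 1.80, 1.95 to 2.78 and 1.66 to 1.79. O2-PBS was still above both other groups, with Lcp1 kept in the sum. The activation sum over the homeostatic sum was then 1.13 to 1.48 in RA-PBS, 1.44 to 1.63 in O2-PBS and 1.53 to 1.82 in O2-IC100, so that RA-PBS and O2-PBS overlapped without these members. The pan-leukocyte sum over the activation sum was 0.838 to 1.55, 1.35 to 1.81 and 0.909 to 1.12. With all members kept, animal 10 had the lowest ratio of its group in all 3 cases, at 0.617, 0.877 and 0.703. Without Sall1, Lgals3 and Lyz2, its pan-leukocyte sum over the activation sum was 1.08, within the range of the other O2-IC100 retinas.

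**Figure D4:**
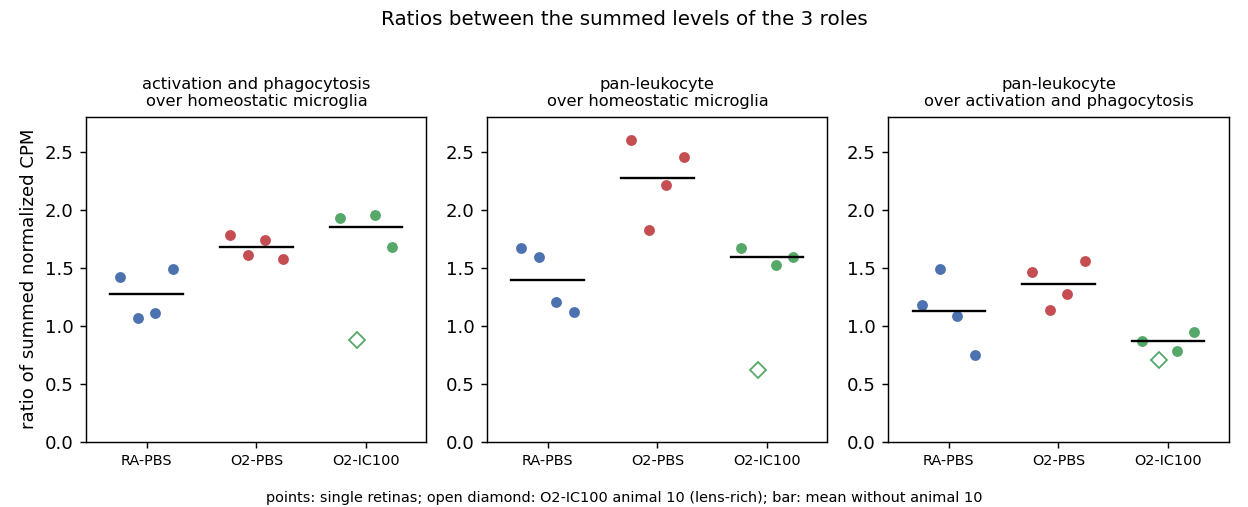
Ratios between the summed normalized CPM of the 3 roles in each retina, on axes that start at 0, with 1 point per animal, a bar at the group mean without animal 10 and an open diamond for animal 10. In the middle panel the O2-PBS retinas, 1.82 to 2.60, lie above all others, a separation from RA-PBS that is lost without Lcp1. In the left panel the RA-PBS retinas, 1.06 to 1.49, lie below both O2 groups without animal 10. Their separation from O2-PBS is lost without Sall1, Lgals3 and Lyz2.

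Related gene lists are given for context from the 11-animal fit of O2-PBS against RA-PBS. Of 11 tested other homeostatic microglia genes, 1 was higher: the Fc receptor-like Fcrls, at 0.337, 0.966, 2.28 and 4.05 normalized CPM in RA-PBS and 5.99 to 10.4 in O2-PBS, with a log2 fold of 1.93 ± 0.50 and an adjusted p of 0.0324 by edgeR. Cst3 and Tgfbr1, among the most abundant of that list, had log2 folds of -0.10 ± 0.15 and 0.05 ± 0.08. Of 17 tested genes of disease-associated microglia, the integrin Itgax (2.24 ± 0.76), the receptor kinase Axl (0.78 ± 0.13) and the secreted Lgals3bp (0.71 ± 0.21) were higher and osteopontin, Spp1 (-0.72 ± 0.15), was lower. Apoe, the lipid carrier that Müller glia also make, had a log2 fold of -0.32 ± 0.19, and the proteases Ctsb and Ctsd, most abundant after it, had 0.02 ± 0.10 and 0.10 ± 0.11. The median log2 fold was 0.05 for the former list and 0.07 for the latter. The part of other retinal cells in these 2 lists was not tested.

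Markers of perivascular and hyaloid macrophages, cells that lie on vessels, rose in 2 of 9 tested genes and fell in 1, and 7 were positive, with a median log2 fold of 1.01. The mannose receptor Mrc1, known as CD206, was 0, 0.145, 1.94 and 0.842 normalized CPM in RA-PBS and 2.22 to 4.07 in O2-PBS, with a log2 fold of 2.05 ± 0.67. Stab1 (1.17 ± 0.25), a scavenger receptor that endothelium also makes, was higher, and Lyve1 (-0.67 ± 0.14), a hyaluronan receptor shared with lymphatic endothelium, was lower. Mrc1 was 2.45, 1.97 and 2.60 in the 3 O2-IC100 retinas, of which 1 lay below the O2-PBS range. In RA-PBS animal 1, the RA-PBS library with the lowest lens share, 6 of the 11 markers were at 0, against 0 or 1 in the other libraries.

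Of 7 tested ligands of microglial receptors, Tgfb1, which maintains microglia, was higher in O2-PBS, at 2.13 to 5.27 normalized CPM in RA-PBS and 6.56 to 8.44 in O2-PBS (log2 fold 1.02 ± 0.22). Both ligands of CSF1R stayed uncalled: Csf1 had 0.37 ± 0.24 and Il34 had 0.18 ± 0.15. The fractalkine gene Cx3cl1, whose receptor Cx3cr1 was higher, was 67.6 to 95.8 in RA-PBS and 64.4 to 73.9 in O2-PBS, a log2 fold of -0.25 ± 0.11. Tgfb2 and Tgfb3, abundant with Cx3cl1, had 0.33 ± 0.10 and -0.02 ± 0.11, and neither passed the test.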

How the data were processed

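RNA of P18 retinas was sequenced in 12 mice, 4 per group, after polyA selection, as 150 bp read pairs. Groups follow the labels. The authors aligned the reads to the mouse genome build GRCm39 (annotation release 104) with kallisto and summarised them per gene with tximport, and they used DESeq2. The deposited values are expected counts per gene, with no scaling. Ensembl IDs were paired with symbols for 35374 of 36131 genes.

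Counts were rounded and analysed with edgeR 4.0.16 in R 4.3.3: TMM normalization, filterByExpr (16489 genes with 12 animals, 16688 with 11) and a robust quasi-likelihood F test, two-sided, in 1 model of the 3 groups with no covariate, with Benjamini-Hochberg adjustment over all genes tested. The thresholds are those of the study. Exon lengths came from the GRCm38 annotation by Ensembl ID. Summed levels and ratios carry no test. All 39 members are accounted for, and of the microglia, macrophage and ligand lists the called genes of the oxygen comparison and the 3 most abundant genes are named, except 1 that is not reported here. Lists of other cells are given as counts and summed levels, the Müller glia list too, which departs from the rule set for it. The members and lists were chosen with earlier results of these data known, and so was the fit without animal 10. The labels do not assign animals to litters. The p-values measure the spread between these mice taken as independent, and an effect of litter could not be told apart from the groups. Alternatives were DESeq2 1.42.0, limma 3.58.1 (voom), other normalizations, filters and thresholds, covariates, fits of the groups compared, and each animal left out. The fit was tested on simulated data. Floors cover counting error only.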

Additional observations from a re-analysis of the deposited data

Results flagged for a closer look

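For each member, the highest or lowest of the 4 animals of a group was compared with the other 3, and 26 of 117 such tests found an animal that stood apart (Dixon's test at 95%), where chance gives about 1 in 20. Of these, 22 were high normalized CPM values of O2-IC100 animal 10, the lens-rich library. The 39 tests of that group share this animal and its TMM factor, so the 22 are not independent of each other. In normalized CPM they were 189 for Csf1r, 5.05 for Tmem119, 139 for Sall1 and 6.31 for P2ry6 among homeostatic members. Among activation and phagocytosis members they were 21.0 for Cd68, 48.5 for Lgals3, 68.9 for Lyz2, 3.41 for Cd14, 15.7 for Fcgr2b, 10.2 for Cybb, 12.0 for Ncf1 and 4.17 for Cd52. Among pan-leukocyte members they were 4.80 for Aif1, 11.0 for Ptprc, 11.9 for Itgb2, 12.2 for Irf8, 55.4 for Laptm5, 19.6 for Lcp1, 7.57 for Cd53, 22.3 for Coro1a, 12.6 for Dock2 and 7.83 for Vav1. The part of the lens tissue and of the TMM factor of this library, 0.324 against 1.07 to 1.15 in the others, was not tested. As CPM of the library total, without that factor, Lcp1 in animal 10 was 6.34, against 13.04 to 13.62 in the other O2-IC100 retinas. Coro1a (7.24 against 13.4 to 14.3) and Ncf1 (3.89 against 5.49 to 6.36) were also below them. Tmem119, Cd14, Cd52, Aif1, Ptprc, Irf8 and Cd53 were within their range, and the rest of the 22 were above it. The other 4 of the 26 were Trem2 in RA-PBS animal 4, at 5.95 against 3.24 to 3.61, Lilrb4a in O2-PBS animal 8, at 0.665 against 2.05 to 2.32, Ly86 in O2-PBS animal 7, at 5.37 against 3.01 to 3.38, and Ptprc in O2-PBS animal 5, at 3.56 against 2.87 to 2.88. Their share of the tests in RA-PBS and O2-PBS is near the 1 in 20 that chance gives.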

How the results depend on the processing

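Called members in O2-PBS against RA-PBS numbered 15 in the 11-animal fit, stayed within 1.5 times of that under every alternative run and lay between 13 and 20 with 1 animal left out. The same comparison with 12 animals, 4 called, gave 7 with DESeq2, 2 at an adjusted p under 0.05, 23 with the lens covariate, 13 with only the groups compared, 0 with rod gene counts as library size, 15 without RA-PBS animal 1 and O2-IC100 animal 10, and 1 to 15 with 1 animal left out, the 15 being without animal 10. O2-IC100 against O2-PBS with 12 animals, 0 called, gave 1 with DESeq2, 18 with the Y-linked covariate, 1 without animals 1 and 10, and 0 to 1 with 1 animal left out. With 11 animals, 1 called, it gave 2 with DESeq2, 0 with the Y-linked covariate, 7 with only the groups compared, 0 with rod gene counts as library size, and 0 to 3 with 1 animal left out, 3 being without RA-PBS animal 2 or 4. O2-IC100 against RA-PBS with 12 animals, 0 called, gave 20 with DESeq2, 15 with the Y-linked covariate, 37 with the lens covariate, 1 with upper-quartile normalization, 13 without animals 1 and 10, and 0 to 12 with 1 animal left out, the 12 being without animal 10. With 11 animals, 12 called, it gave 19 with DESeq2, 19 with the lens covariate, 2 with only the groups compared, and 3 to 23 with 1 animal left out. The log2 fold of Sall1 in O2-PBS against RA-PBS turned to 2.05 (12 animals) and 1.04 (11 animals) with the lens covariate, called in both, and ran from -0.54 to 0.063 (12 animals) and from -0.53 to 0.068 (11 animals) with 1 animal left out. The cause of these shifts was not tested. In the 11-animal fit, RA-PBS animal 1 alone of its group had a lens share near that of the O2 groups, so the lens covariate leans on it. No called member changed its direction under an alternative. Genes without an adjusted p in DESeq2 stayed uncalled. Over all genes, 133, 0 and 0 were called with 12 animals in the order of the comparisons above, 407, 112 and 279 with DESeq2 and 867, 0 and 0 with only the groups compared. With 11 animals these were 1046, 158 and 261, then 1167, 394 and 561, then 867, 789 and 18. Members near 1 normalized CPM rest on few counts per library, so that smaller differences in them could not be seen at this depth. No paired analysis was possible because each animal carries a number of its own and the groups share none.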

Other observations

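The related lists were also read between O2-IC100 and O2-PBS in the 11-animal fit. Genes of disease-associated microglia summed to 1465 to 1590 normalized CPM in O2-PBS and to 1688 to 1912 in the 3 O2-IC100 retinas, and 0 of 17 tested genes passed the test. Apoe, the most abundant of them, was 418 to 486 in O2-PBS and 632, 715 and 676 in O2-IC100, a log2 fold of 0.57 ± 0.20 with an adjusted p of 0.191 by edgeR. Lpl, the lipoprotein lipase, was chosen after its values were seen and had a log2 fold of 0.58 ± 0.15 with an adjusted p of 0.11.

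Markers of perivascular and hyaloid macrophages summed to 39.9 to 47.9 normalized CPM in O2-PBS and to 33.1 to 37.5 in the 3 O2-IC100 retinas, while RA-PBS ran from 26.3 to 40.1. In animal 10, which is outside this fit, their sum was 94.3 CPM of the library total, against 37.5 to 41.8 in those 3. Of the 9 tested, 0 passed and 7 had negative log2 folds, with a median of -0.20. Stab1, the most abundant of them with Lyve1, was 19.8 to 31.7 in O2-PBS and 13.3, 16.8 and 16.9 in O2-IC100, a log2 fold of -0.61 ± 0.26 with an adjusted p of 0.242 by edgeR.

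Of the ligands, Tgfb1 was 4.53, 5.81 and 5.29 normalized CPM in O2-IC100, below the 6.56 to 8.44 of O2-PBS, and had a log2 fold of -0.52 ± 0.24 with an adjusted p of 0.254 by edgeR. Of 7 tested ligands 0 passed, and 6 had negative log2 folds.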
